A study of Mus musculus with 4 samples.

Results

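The clustered protocadherins are neural cell adhesion proteins encoded by the tandem Pcdha, Pcdhb and Pcdhg gene clusters on mouse chromosome 18. The genes considered here are the protein-coding genes of chromosome 18 whose symbols begin with Pcdha, Pcdhb or Pcdhg in the GENCODE vM1 annotation of the mm9 genome. This rule found 24 genes of 22367 protein-coding genes, namely 2 Pcdha, 21 Pcdhb and 1 Pcdhg genes. GENCODE vM1 merges most of the Pcdha and Pcdhg genes into single models, so the unit described below is the variable exon, and 40 variable exons are annotated in the 24 genes (10 Pcdha, 21 Pcdhb and 9 Pcdhg).

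The study mapped H3K9me3 and H3K36me3, which are trimethylation of lysines 9 and 36 of histone H3, by chromatin immunoprecipitation and sequencing in mouse embryonic stem (ES) cells. The WT cells carried unmodified H3f3a and H3f3b, the pair of genes for histone variant H3.3, and the G34R cells carried the H3.3 G34R substitution on 1 targeted H3f3a allele beside a normal H3f3a allele and intact H3f3b. The mutant allele was driven by the endogenous H3f3a promoter after Cre had excised a conditional cassette, both cell types were of strain 129S1/SvImJ, and they were grown with serum and leukemia inhibitory factor. Each mark had 1 library per cell type (4 libraries in all), and the processed data are 1 list of enriched regions per mark, made from both cell types together, with 32502 H3K9me3 and 31593 H3K36me3 regions.

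A list gives positions only. A region was entered when bins of 200 bp inside annotated genes passed the authors' threshold in either cell type, so WT and G34R cells cannot be told apart, no height or depth is known, and no replicate error or test is available. The threshold was a percentile of read counts scaled to library depth. None of the 4 libraries was an input, and the methods describe no input correction of these counts, so a region is a place of high read count. The study's methods further exclude merged regions by their size and those whose read counts were extreme. The size criterion as worded does not match the lists, in which no region is narrower than 600 bp, so enriched stretches that were shorter, or whose counts were extreme, may be missing from them. Shares of exons or bins are given with 95% Wilson intervals, which cover counting error only, because neighbouring exons and bins are not independent. The ES cell label was checked with the H3K36me3 list, which covered part of 11 of 12 genes that mark ES cells (Pou5f1, Nanog and Sall4 among them; Dppa5a was the exception) and 1 of 12 genes of other cell types (Tubb3).

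In each protocadherin cluster a long first exon, the variable exon, encodes the whole extracellular part of the protein with its cadherin repeats, the membrane span and a short cytoplasmic stretch. The Pcdha and Pcdhg variable exons each have a promoter of their own and are spliced to constant exons that all members of their cluster share, whereas Pcdhb genes consist of a variable exon alone. In neurons each cell uses a few of these promoters, a choice that gives neighbouring cells different surface identities. H3K9me3 is known as a mark of repressed chromatin, and H3K36me3 as a mark laid down along genes as they are transcribed.

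The locus, from the first variable exon to the last constant exon, spanned 911.589 kb (mm9, chr18:37089939-38001527, plus strand throughout). The Pcdha gene model that holds 9 variable exons, Pcdha11 (ENSMUSG00000007440.7), covered 257.373 kb, and Pcdha3 (ENSMUSG00000091969.1) lay within it. The Pcdhb genes lay over 256.422 kb, and the Pcdhg gene model, Pcdhgc5 (ENSMUSG00000023036.7), covered 167.539 kb with 9 annotated variable exons. A scan of the mm9 sequence for open reading frames of at least 2.1 kb found 14 frames in the Pcdha cluster and 22 in the Pcdhg cluster, of which 10 and 9 were the annotated exons. The frames of Pcdhga1 (chr18:37821599-37824031) and Pcdhga2 (chr18:37828759-37831224) lay before the Pcdhg gene model, outside every annotated gene. As 0 bins of either list lay outside the genes of GENCODE vM1, these 2 frames could not be assessed and were left out. With the other frames and that of Pcdhb20, which GENCODE vM1 lists as a pseudogene, the set holds 56 variable exons of 2232 to 2562 bp (14 Pcdha, 22 Pcdhb and 20 Pcdhg). All Pcdha and Pcdhg variable exons, annotated or added, were named by matching the distance from each exon to the end of its cluster with RefSeq gene lengths.

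H3K9me3 regions touched 31 of the 40 annotated variable exons (77.5%, interval 62.5 to 87.7%). They touched every annotated Pcdha exon (10 of 10, interval 72.2 to 100%), 15 of 21 Pcdhb exons (71.4%, interval 50.0 to 86.2%) and 6 of 9 Pcdhg exons (66.7%, interval 35.4 to 87.9%). Of all 1361 coding exons of at least 1.5 kb in the genome, 34.2% were touched by an H3K9me3 region, and of the 1321 such exons outside the clusters 32.9% were touched (interval 30.4 to 35.5%). The share of variable exons therefore lay above that of other long exons by more than the counting error of both, and the intervals of the 3 clusters overlapped one another. The share was 40.7% among the 344 long exons of genes with a single coding exon, a set from which Pcdhb was not removed. It was 38.9% among the 36 long exons of chromosome 18 outside the clusters (interval 24.8 to 55.1%).

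With the reading frames and Pcdhb20 added, H3K9me3 regions touched 44 of 56 variable exons (78.6%, interval 66.2 to 87.3%), including 14 of 14 in Pcdha, 15 of 22 in Pcdhb and 15 of 20 in Pcdhg. The added frames thus gave 4 of 4 in Pcdha and 9 of 11 in Pcdhg, and Pcdhb20 had none. Most touched exons held a single region (33 exons), 10 held 2 regions, and Pcdhga9 held 3. No region touched more than 1 variable exon.

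H3K36me3 regions touched 0 of the 40 annotated variable exons, which allows a share of up to 8.76%, and 0 of the 56, which allows up to 6.42%. Among all long coding exons 30.6% were touched by an H3K36me3 region. The share was lower, at 18%, in the 344 long exons of genes with a single coding exon (interval 14.3 to 22.4%), from which Pcdhb was not removed. It was 19.4% in the 36 long exons of chromosome 18 outside the clusters (interval 9.75 to 35.0%). It was higher, at 36.9%, in the 271 other exons whose G+C and observed to expected CpG ratio fell inside the ranges of the annotated variable exons (interval 31.4 to 42.8%). The upper limit for the 40 variable exons lay below each of these intervals, narrowly so for chromosome 18. Since no variable exon carried H3K36me3, none carried both marks. Bases in both lists were found in 6.32% of long coding exons, which lies within the limits of 8.76% and 6.42% above, so no difference was detectable.

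**Figure D1:**
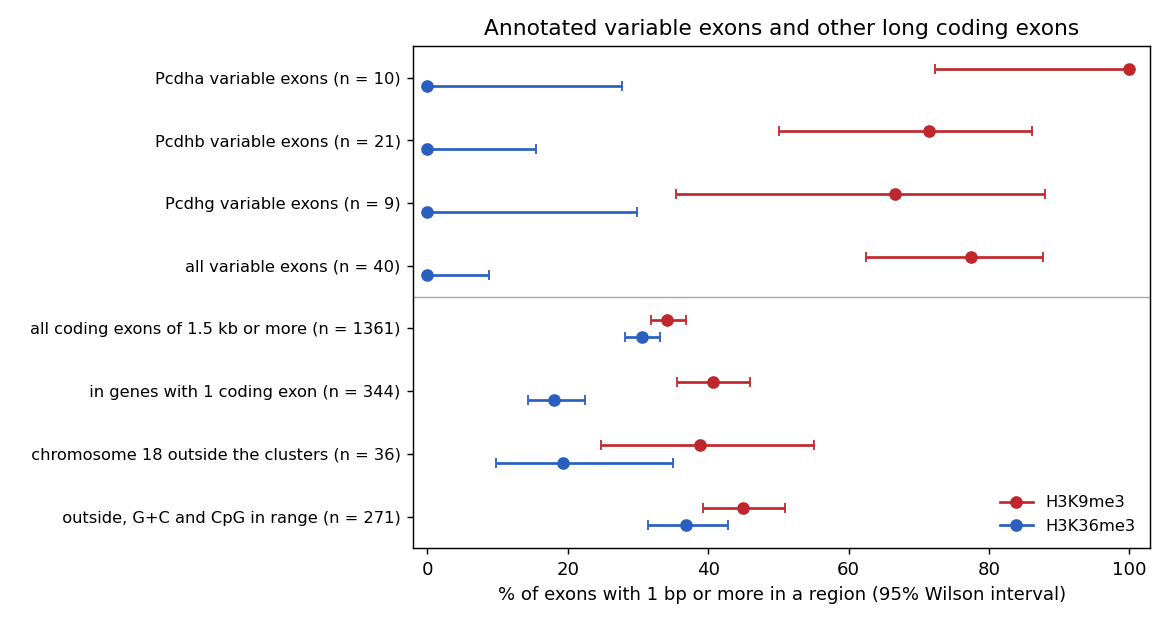
Percent of exons with at least 1 bp in an H3K9me3 region (red) or an H3K36me3 region (blue), for the annotated variable exons of each cluster and for comparison sets of coding exons of at least 1.5 kb. Points are shares and bars are 95% Wilson intervals. Variable exons were not removed from the set of all long exons or from that of genes with 1 coding exon. The variable exons lie at 66.7 to 100% for H3K9me3 and at 0 for H3K36me3, while the comparison sets lie at 34.2 to 45.0% for H3K9me3 and at up to 36.9% for H3K36me3.

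The clusters differed in how much of each variable exon was covered, which is given as a description of the list. H3K9me3 regions covered 74.9% of the bases of the 14 Pcdha exons, 62.8% of the 20 Pcdhg exons and 27.6% of the 22 Pcdhb exons. At least 50% of the exon was covered in 14 of 14 Pcdha exons, 13 of 20 Pcdhg exons and 2 of 22 Pcdhb exons. Among the annotated exons alone 16 of 40 were covered to this extent, compared with 18.7% of all long coding exons. These were 10 of 10 Pcdha, 4 of 9 Pcdhg and 2 of 21 Pcdhb exons, so by this measure Pcdhb was not above other long exons.

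In the Pcdha cluster every variable exon carried H3K9me3, from 1204 bp in Pcdha4 (chr18:37112420-37114804) to the full 2562 bp of Pcdhac2 (chr18:37303623-37306184). Pcdha9 (chr18:37157534-37160014) was also covered in full, over 2481 bp. Pcdha8 (chr18:37152121-37154514), a reading frame absent from GENCODE vM1, was covered over 95.2% of its length and lay in the widest region of the locus, of 6200 bp (chr18:37148201-37154400). The other Pcdha exons had intermediate values. Pcdha1 was covered over 72.3%, Pcdha2 over 58.6% and Pcdha3 over 67.1%. Pcdha5, Pcdha6 and Pcdha7 were covered over 61.8%, 73.3% and 81.4%. Pcdha10, Pcdha11 and Pcdha12, at the end of the alternate series, were covered over 73.7%, 79.6% and 75.2%. Pcdhac1 (chr18:37249790-37252225), which like Pcdhac2 encodes a C-type isoform, was covered over 57.9%. Thus the 12 alternate and 2 C-type exons of Pcdha all carried the mark, and coverage reached at least 50.5% in each.

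In the Pcdhb cluster the regions were short. The longest covered exon was Pcdhb19 (chr18:37656808-37659210), with 2193 bp or 91.3% of its length, followed by Pcdhb17 (chr18:37644813-37647209), with 1400 bp or 58.4%. Pcdhb2, Pcdhb3, Pcdhb6 and Pcdhb8 each held a single region of 600 bp, the shortest width in the list, and were covered over 25.0 to 25.9%. The values of the other 9 touched exons, Pcdhb4, Pcdhb7, Pcdhb10, Pcdhb14, Pcdhb15, Pcdhb16, Pcdhb18, Pcdhb21 and Pcdhb22, lay between 33.7% in Pcdhb18 and 47.1% in Pcdhb4. Over the 15 touched Pcdhb exons the median was 36.4%, compared with 73.5% over the touched Pcdha exons and 98.1% over the touched Pcdhg exons.

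The Pcdhb exons without an H3K9me3 region were Pcdhb1, Pcdhb5, Pcdhb9, Pcdhb11, Pcdhb12, Pcdhb13 and the Pcdhb20 frame. Pcdhb1, the first gene of the cluster, lies 77.34 kb after the last Pcdha constant exon, and Pcdhb11, Pcdhb12 and Pcdhb13 are consecutive genes. Pcdhb5 had a region of 600 bp within the gene but after its coding exon (chr18:37482801-37483400). Counted over whole genes, 16 of the 21 Pcdhb genes carried H3K9me3 (76.2%, interval 54.9 to 89.4%), compared with 21.3% of protein-coding genes under 10 kb, 19.4% of genes with a single coding exon and 40.2% of all genes. Genes with a single coding exon were shorter, with a median length of 1.09 kb against 3.44 kb for Pcdhb. Where that exon was at least 1.5 kb long, 40.7% of the exons were touched, in a set from which Pcdhb was not removed. Pcdhb1, Pcdhb9, Pcdhb11, Pcdhb12 and Pcdhb13 had no region anywhere in the gene. H3K36me3 touched 0 of the 21 Pcdhb genes, which allows up to 15.5%. This limit lay below the 20.7% of genes under 10 kb (interval 19.8 to 21.5%) and the 34% of all genes, but above the 6% of genes with a single coding exon, from which no difference was detectable.

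In the Pcdhg cluster the covered exons were most frequent in the middle of the variable exon array. Of the first 6 variable exons assessed 3 were touched, namely Pcdhgb1, Pcdhgb2 and Pcdhga5. All of the next 11, from Pcdhga7 to Pcdhga12, were touched, and of the last 3, the C-type exons, Pcdhgc4 was touched and Pcdhgc3 and Pcdhgc5 were not. Pcdhgb4, Pcdhga8, Pcdhgb5, Pcdhgb6, Pcdhga10, Pcdhgb7 and Pcdhgb8 were covered in full, so that 7 of the 9 fully covered exons of the locus were Pcdhg exons. Pcdhgb8, which RefSeq lists as a transcribed pseudogene, was among them, with 2232 bp. Pcdhga5 was covered over 98.1%, Pcdhga9 over 83.5% and Pcdhga11 over 83.3%. Lower values were found in Pcdhga7 (73.9%), Pcdhgb2 (73.6%), Pcdhgb1 (63.1%), Pcdhgc4 (49.5%) and Pcdhga12 (33.0%). The exons without a region were Pcdhga3, Pcdhga4 and Pcdhga6 of the A type and Pcdhgc3 and Pcdhgc5 of the C type.

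The A and B subfamilies of Pcdhg, whose exons alternate along the array, differed. All 7 Pcdhgb exons were touched and 90.9% of their bases were covered, whereas 7 of 10 Pcdhga exons were touched and 57.2% of their bases were covered. Among the first 6 exons, where the subfamilies are interleaved, both Pcdhgb exons and 1 of 4 Pcdhga exons were touched. With so few exons these counts are a description.

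**Figure D2:**
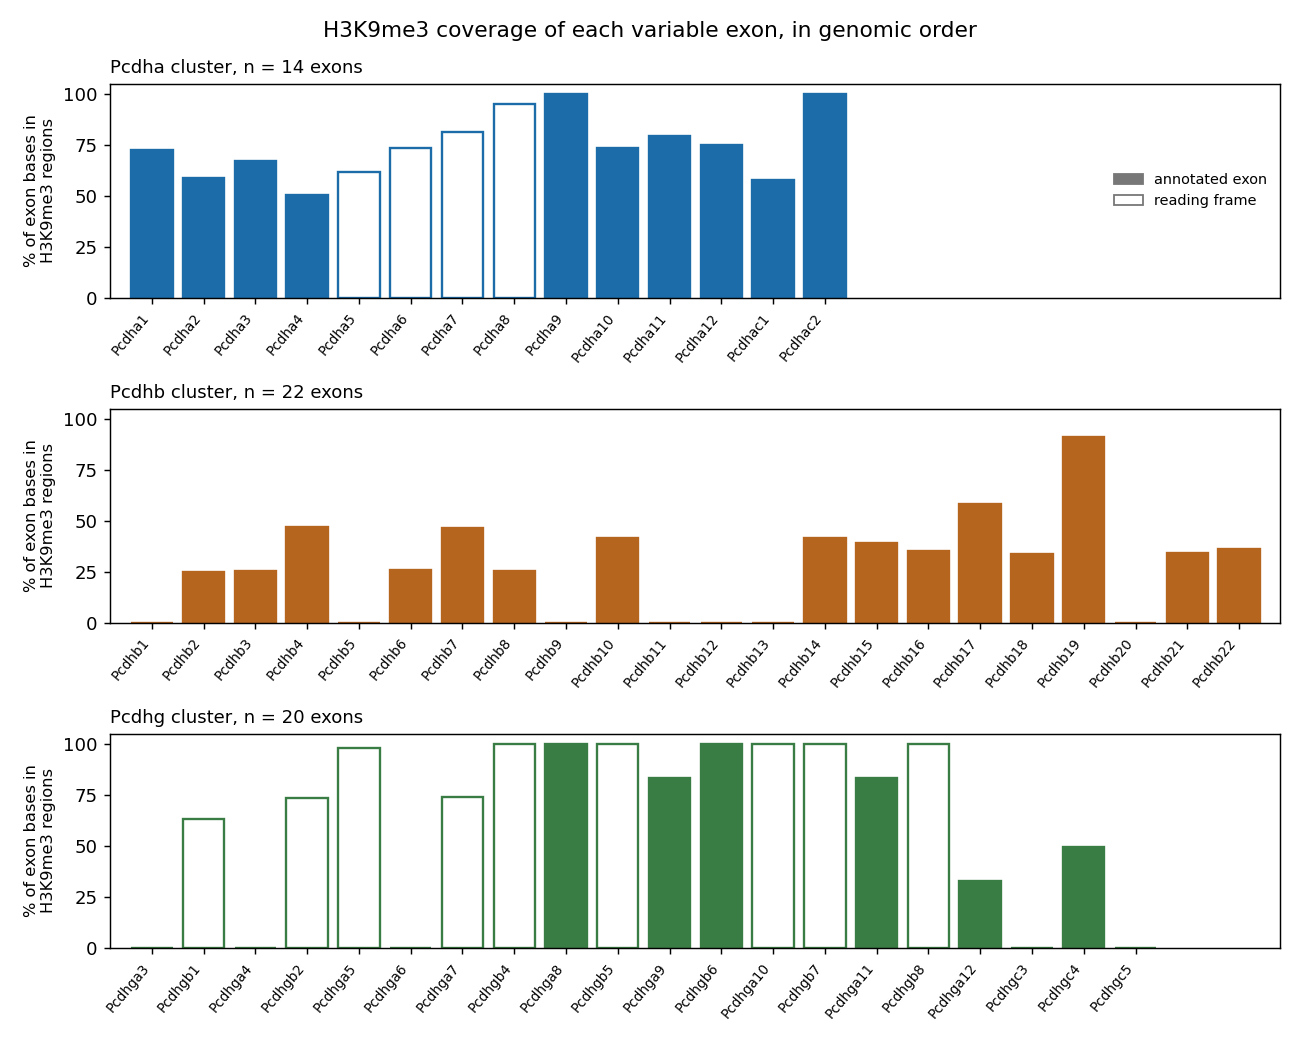
Percent of the bases of each variable exon that lie in H3K9me3 regions, in genomic order within the Pcdha (14 exons), Pcdhb (22) and Pcdhg (20) clusters; filled bars are annotated exons and open bars are reading frames absent from the GENCODE vM1 protein-coding annotation, and exons at 0 have no bar. Every Pcdha exon reaches at least 50.5%, most touched Pcdhb exons stay below 50%, and the Pcdhg exons from Pcdhgb4 to Pcdhgb8 lie between 83.3 and 100%.

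Within the variable exon, H3K9me3 was found more often over its later part. In Pcdha the first coding base lay in a region in 4 of 14 exons, while the position 800 bp further on did so in 13 of 14 exons and the last base in 9 of 14. In Pcdhb the first base was covered in 3 of 22 exons, the position at 1600 bp in 13 of 22, and the last base in 4 of 22. In Pcdhg the first base was covered in 10 of 20 exons, the position at 1800 bp in 15 of 20, and the last base in 11 of 20. When each exon was divided into 3 equal parts, the Pcdha exons were covered over 53.1%, 87.1% and 84.6% of their bases from the first to the last part. The Pcdhb exons were covered over 12.5%, 27.9% and 42.3%, and the Pcdhg exons over 53.6%, 66.8% and 67.9%. The start of the exon, which adjoins the promoter, was thus the least covered part in each cluster, and the gradient was smallest in Pcdhg. For Pcdhb the lists limit this comparison, because its gene models begin at or shortly before the exon start. An enriched stretch that spans the start loses its bins before the gene and can fall below 600 bp, the shortest width in the list. How much of the Pcdhb gradient this accounts for was not tested.

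Sequence upstream of the exons could be compared for Pcdha and Pcdhg only, because most of the space before a Pcdhb exon lies outside annotated genes, where the lists hold no region. In the 1 kb before a Pcdha or Pcdhg variable exon, 14 of 65 and 33 of 96 bins of 200 bp were in H3K9me3 regions (21.5% and 34.4%). Any region reached into this 1 kb in 4 of 14 Pcdha exons and 11 of 20 Pcdhg exons. These totals include Pcdha1, which starts at the first base of its gene model, and Pcdhga3, which starts close to that of its own. Both had little or no upstream sequence inside the gene model to be assessed. Pcdhg exons start as little as a few kilobases apart, so part of this upstream signal adjoins the exon before.

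**Figure D3:**
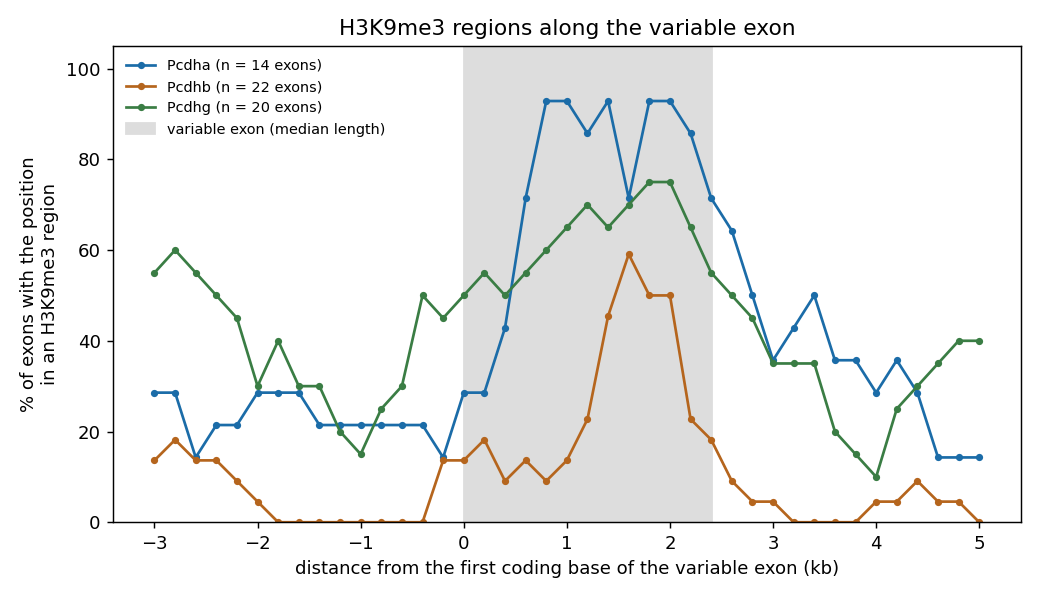
Percent of variable exons whose sequence lies in an H3K9me3 region, at each 200 bp step from 3 kb before to 5 kb after the first coding base, for 14 Pcdha, 22 Pcdhb and 20 Pcdhg exons; grey marks the median exon length. The Pcdha line rises after the exon start to 13 of 14 exons, the Pcdhb line peaks at 13 of 22 exons at 1.6 kb, and the Pcdhg line is at 10 of 20 exons at the exon start and at 15 of 20 at 1.8 kb. Most positions before a Pcdhb exon lie outside annotated genes, where the lists hold no region.

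The locus held 79 H3K9me3 regions, of which 34 were in the Pcdha cluster (52.6 kb), 20 in the Pcdhb cluster (17.2 kb) and 25 in the Pcdhg cluster (50.6 kb). A variable exon was touched by 56 of them, and of the other 23 regions 15 lay in the Pcdha cluster. Median region width was 1200 bp in Pcdha, 700 bp in Pcdhb and 1400 bp in Pcdhg, compared with 800 bp over the whole list. Consecutive regions were separated by a median of 800 bp in both Pcdha and Pcdhg and 5200 bp in Pcdhb, compared with 10000 bp over the whole list, and part of the Pcdhb spacing is sequence between genes that the lists do not hold. The Pcdha and Pcdhg gene models ranked 24 and 26 of 22367 genes by length covered by H3K9me3, and among the 2401 genes of at least 100 kb they ranked 19 and 8 by percent covered (20.4% and 30.2%, against a median of 1.65%).

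When regions within 2 kb of each other were joined, the longest run spanned 34000 bp in Pcdhg (chr18:37890401-37924400). It held 12 regions, covered 29.8 kb and took in 7 consecutive variable exons, from Pcdhgb5 to Pcdhgb8, and ranked 21 of 22532 runs genome-wide by length. The longest Pcdha run spanned 13.6 kb over Pcdha8 and Pcdha9 (chr18:37148201-37161800), and a run of 12.2 kb followed over Pcdha10 and Pcdha11 (chr18:37165401-37177600). The longest Pcdhb runs were of 4.8 kb, at Pcdhb19 and at Pcdhb21 with Pcdhb22. Runs in Pcdhb were limited in advance, because its genes are 2457 to 7131 bp long and sequence between genes cannot hold a listed region. Their length therefore cannot be compared with that of the Pcdha and Pcdhg runs. In Pcdhb 18 of the 20 regions touched a variable exon, whereas in Pcdha 15 of the 34 regions lay between or beyond the variable exons. This contrast was largely set by the annotation, because the lists are confined to genes. Of the bins in genes, 282 of 421 in Pcdhb and 185 of 1288 in Pcdha were variable exon bins.

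**Figure D4:**
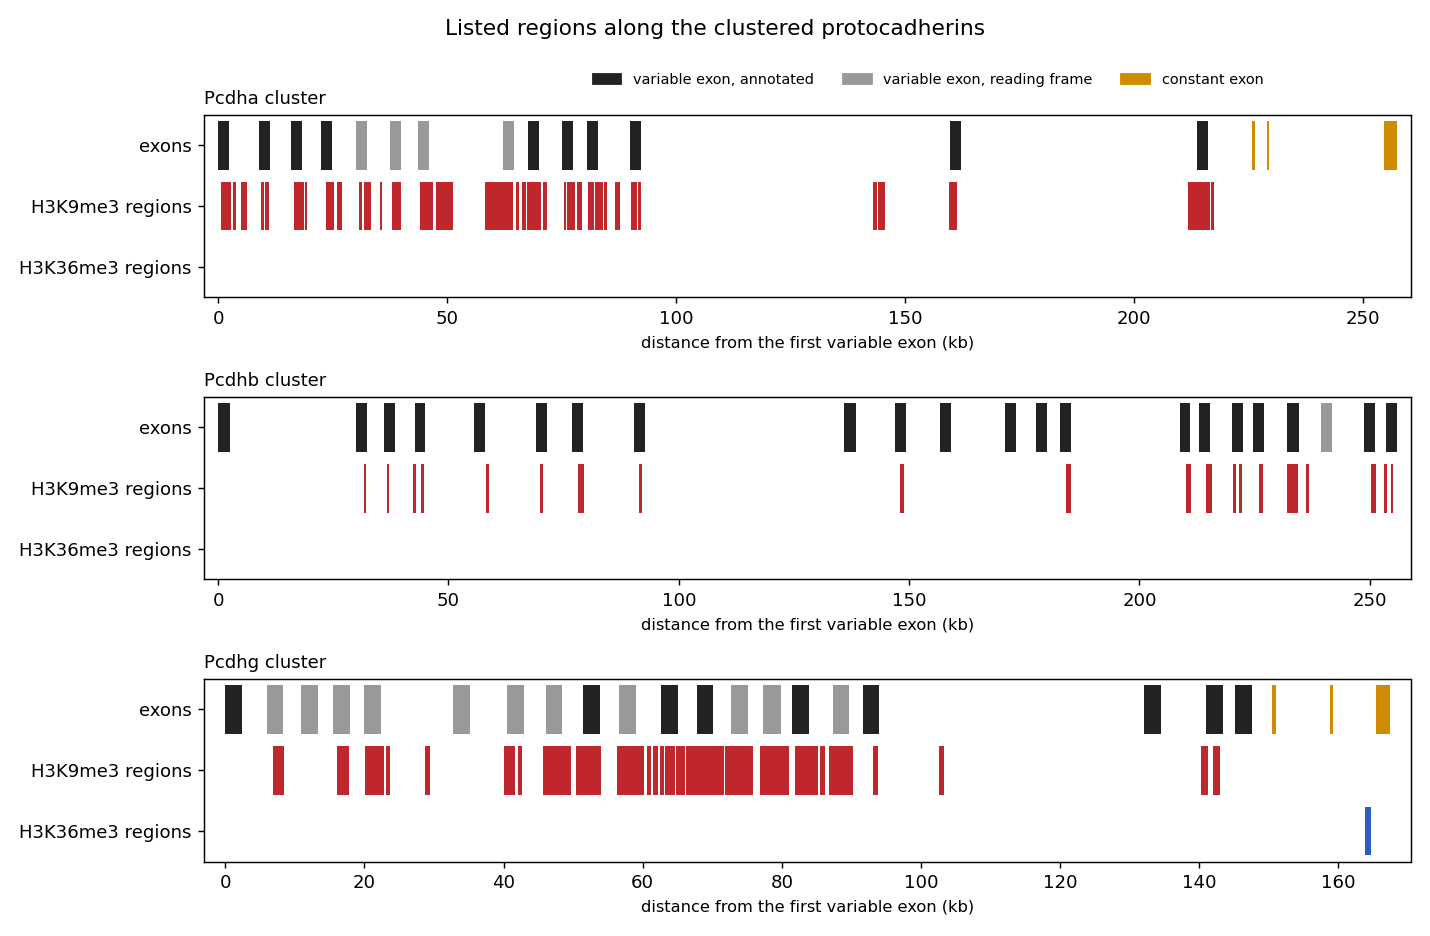
Map of the exons and listed regions of the Pcdha, Pcdhb and Pcdhg clusters, drawn to scale in kb from the first variable exon of each cluster (features under 0.5 kb are drawn 0.5 kb wide). The upper row shows variable exons (black, annotated; grey, reading frames) and constant exons (gold), the middle row the 79 H3K9me3 regions (red) and the lower row the single H3K36me3 region (blue), which lies before the last Pcdhg constant exon.

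Neither list had a region at any of the 6 constant exons, which lie at chr18:37315809-37315867, chr18:37318919-37319007 and chr18:37344600-37347311 in Pcdha and at chr18:37984675-37984733, chr18:37992919-37993007 and chr18:37999557-38001527 in Pcdhg. Of these exons 4 are at most 89 bp long, and the 32 bins of all 6 allow a share of up to 10.7%, which takes in the genome-wide shares of genic bins for both marks (3.43% for H3K9me3 and 5.33% for H3K36me3). The nearest H3K9me3 region lay 8408 bp before the first Pcdha constant exon (chr18:37306801-37307400), shortly after the Pcdhac2 variable exon, and 7474 bp before the first Pcdhg constant exon (chr18:37976201-37977200), at Pcdhgc4. The introns between the constant exons held no H3K9me3 region in either cluster. The nearest H3K36me3 region lay in the intron before the last Pcdhg constant exon, 756 bp upstream of it (chr18:37998001-37998800), and at 800 bp it was the only H3K36me3 region of the locus.

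This region ended a stretch of 1039.8 kb without H3K36me3 (chr18:36958201-37998000), in which all 79 H3K9me3 regions of the locus lay. The region before the stretch was at Zmat2 and the next one after the Pcdhg cluster was at Diap1. The stretch held 517.8 kb of sequence inside genes and ranked 437 of 31572 such stretches by genic bins, so that stretches as long occurred many times elsewhere.

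Between the clusters neither list had a region. The space from Pcdha to Pcdhb measured 77.34 kb and that from Pcdhb to Pcdhg 153.633 kb, counted between the outermost annotated exons. The latter takes in the Pcdhga1 and Pcdhga2 frames, and up to the first of them it measured 141.082 kb. Only 2 of 388 bins in the former space and 46 of 769 bins in the latter touched annotated genes, bins at the ends of the clusters included, and the lists are confined to genes. The latter space held the protein-coding genes Slc25a2, Taf7 and 3222401L13Rik, and the former held none. The absence therefore concerns these few bins and says nothing of the sequence between genes.

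Over the 2548 bins of 200 bp that lay in genes of the locus, 602 were in H3K9me3 regions (23.6%, interval 22.0 to 25.3%), compared with 3.43% of 5291359 bins in genes of the whole genome. By contrast 4 of the 2548 bins were in an H3K36me3 region (0.157%), compared with 5.33% genome-wide. H3K9me3 took up 50.8% of the variable exon bins, 26.5% of bins in the 1 kb before them, 13.9% of the bins between them and 1.93% of bins after the last variable exon, and it took up 0 of 32 constant exon bins (up to 10.7%). The order of these values held in both Pcdha and Pcdhg. In Pcdha they were 72.4%, 21.5%, 13.3% and 2.66%, and in Pcdhg 61.7%, 34.4%, 15.4% and 0 of 71 bins. Introns between the variable exons were therefore also above the genome-wide value.

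Variable exons are richer in G+C and in CpG dinucleotides than their introns, and in the list as a whole H3K9me3 was more frequent at higher values of both. Over bins in genes of the genome it took up 1.24% at a G+C of 30 to 35% and 7.52% at 55 to 60%, and in the locus 12.2% and 53.2% of the bins in these classes. Over long coding exons outside the clusters, 17.7% were touched by H3K9me3 where the observed to expected CpG ratio was below 0.3 and 71.7% where it was 0.6 to 0.8. Of the 56 variable exons 22 had a ratio of 0.6 to 0.8, and 21 of these were touched (95.5%, interval 78.2 to 99.2%), compared with 71.7% of other exons in that class (interval 61.8 to 79.9%). At a ratio of 0.4 to 0.5, 15 of 21 variable exons (71.4%, interval 50.0 to 86.2%) and 37.2% of other exons (interval 31.1 to 43.6%) were touched. At 0.3 to 0.4, 6 of 11 variable exons were touched (54.5%, interval 28 to 78.7%), compared with 28.8% of other exons (interval 24.1 to 33.9%). The share of variable exons was the higher in each class, and the intervals were separate only at 0.4 to 0.5. Among the 271 other exons whose G+C and CpG ratio fell inside the ranges of the annotated variable exons 45.0% were touched (interval 39.2 to 51.0%). This lies between the 32.9% of all long exons outside the clusters and the 77.5% of the annotated variable exons, whose interval of 62.5 to 87.7% it does not reach.

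CpG content also differed between the clusters and between subfamilies. The 12 alternate Pcdha exons had ratios of 0.60 to 0.78, all Pcdhb exons had ratios of 0.32 to 0.50, and the Pcdhgb exons had a median of 0.67 compared with 0.48 for Pcdhga. Exons with an H3K9me3 region had a median ratio of 0.54, compared with 0.43 for the 12 without one. In Pcdhg these medians were 0.61 and 0.45, and in Pcdhb they were 0.44 and 0.42. Exceptions occurred in both directions. Pcdhgc3 had a ratio of 0.71 and no H3K9me3 region, while Pcdhb6, Pcdhb16 and Pcdhb7 had ratios of 0.33 to 0.36 and each carried one. Pcdhac2 was covered in full at a ratio of 0.49. Within variable exons, bins in H3K9me3 regions had a median G+C of 54.0% and 7 CpG, and the other bins had 50.0% and 4 CpG. For G+C this contrast was largest in Pcdhb (56.5% and 48.0%) and was not seen in Pcdhg (52.0% and 52.8%). Median CpG counts were 7 and 4 in Pcdhb, 7 and 6.5 in Pcdhg, and 8 in both groups of Pcdha bins. The CpG contrast over all clusters was therefore mainly that of Pcdhb. The part of base composition in the results was not tested beyond these classes.

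**Figure D5:**
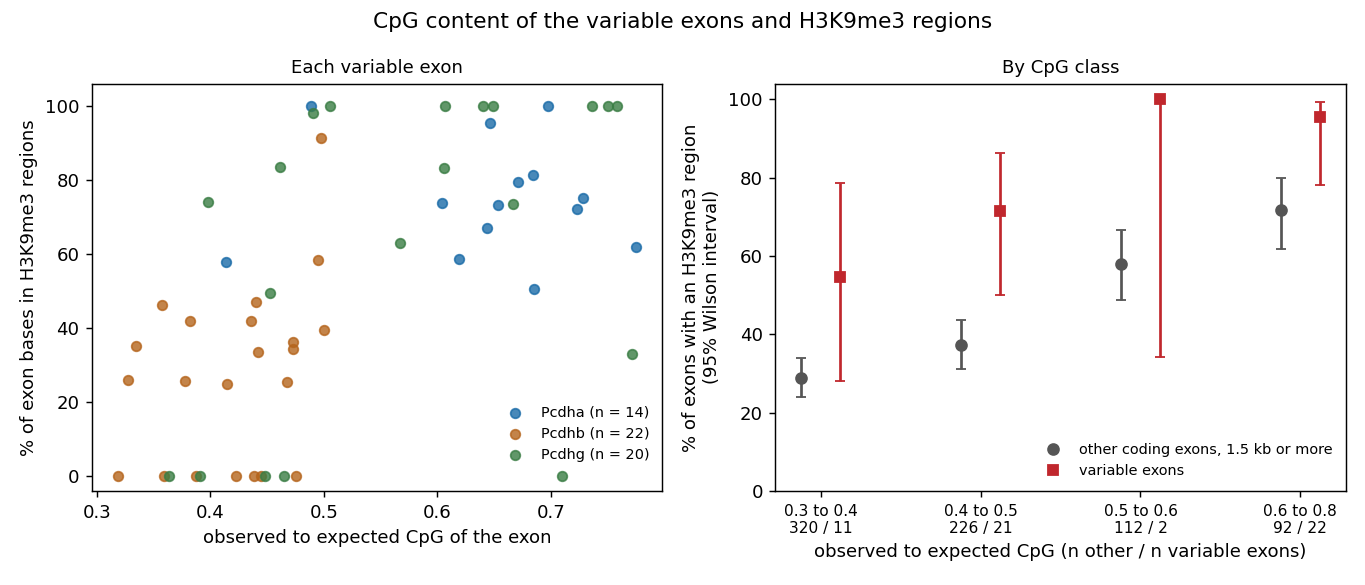
Left, percent of exon bases in H3K9me3 regions against the observed to expected CpG ratio, 1 point per variable exon (14 Pcdha, 22 Pcdhb and 20 Pcdhg). Right, percent of exons with an H3K9me3 region by CpG class for other coding exons of at least 1.5 kb (grey) and for the 56 variable exons (red), with 95% Wilson intervals; the share rises with the CpG ratio in the other exons, from 28.8% at 0.3 to 0.4 to 71.7% at 0.6 to 0.8, and the variable exons lie above them in each class.

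Variable exons resemble one another in sequence, and reads with up to 5 alignments had been kept, so a read could be placed at another exon than the one it came from. The share of 50-base words of an exon that occur once in the mm9 genome ranged from 72.9 to 100%, with medians of 85.1% in Pcdha, 92.9% in Pcdhb and 99.0% in Pcdhg. In Pcdha up to 11.8% of the words of an exon had more than 5 copies. Exons with an H3K9me3 region were less unique than those without, with medians of 91.7% and 98.0%, and in Pcdhg these were 95.9% and 99.7%. The Pcdhgb exons, all of which carried H3K9me3, had a median of 88.0%, compared with 99.5% for Pcdhga. In Pcdhb the order was the opposite, with 94.4% for exons with a region and 91.8% for those without. Counting only bins whose central 50 bases occur once, 25.0% of 2271 bins of the locus were in H3K9me3 regions, and within variable exons the values were 75.6% in Pcdha, 27.0% in Pcdhb and 60.2% in Pcdhg, compared with 72.4%, 26.6% and 61.7% over all bins. Sequence outside the central 50 bases was not filtered, and the part of reads with several alignments in the results for single exons was not tested.

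Other tandem gene families gave a range of values. For comparison, H3K9me3 regions touched 40.2% of all protein-coding genes, 21.3% of those under 10 kb and 84.1% of those of at least 100 kb. The median length of the Ugt1a models was 116.751 kb, so their count below was near the share of long genes. H3K9me3 regions touched 40 of 40 Hox genes, which order the body axis, and 9 of 9 Ugt1a genes, whose models overlap and which like Pcdha and Pcdhg join variable first exons to shared exons. They touched 60.0% of 50 Cyp2 genes, 68.6% of 51 Krt genes and 36.7% of 60 Serpin genes. Among the chemosensory receptor families, the values were 4.49% of 1113 Olfr genes, 2.96% of 203 Vmn1r genes and 26.4% of 125 Vmn2r genes. The 76.2% of Pcdhb genes thus lay within the range of the families and far above the Olfr genes, which also have a single coding exon. The Olfr genes were shorter, with a median length of 0.96 kb against 3.44 kb for Pcdhb, so these values are not matched for length. H3K36me3 touched at most 5.00% of the genes in each of these families, compared with 34% of all genes and 6% of genes with a single coding exon. For small families the limits were wide. The count of 0 of 9 Ugt1a genes allows up to 29.9%, which takes in the 28.3% of genes of at least 100 kb. Upper limits for Serpin, Cyp2, Krt and Hox genes (13.7%, 13.5%, 10.3% and 8.76%) also passed the 6% of genes with a single coding exon.

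Among the non-clustered protocadherins, single genes of the same superfamily, 10 of 13 carried H3K9me3 and 0 of 13 carried H3K36me3. Over all protein-coding genes the shares were 40.2% and 34%, and over genes of at least 100 kb, which 5 of the 13 are, they were 84.1% and 28.3%. Pcdh15, a component of the inner ear tip link, had the longest covered length with 22711 bp, followed by Pcdh7 with 5541 bp and Pcdh1 with 5307 bp. Pcdh9, Pcdh12 and Pcdh18 had neither mark. Among 21 other cadherin genes, 17 carried H3K9me3 and 4 carried H3K36me3 (81.0% and 19%). Since 12 of these genes are at least 100 kb long, the H3K9me3 count was near the share of long genes. The longest H3K9me3 coverage was 287168 bp in Cdh13, followed by 20865 bp in Cdh4 and 12276 bp in Cdh5, the endothelial cadherin. The longest H3K36me3 coverage was 25746 bp in Cdh1, the E-cadherin of epithelial and ES cells, followed by 12600 bp in Cdh3 and 1000 bp in Cdh15. As in the clustered variable exons, no H3K36me3 region was listed in the 13 non-clustered protocadherins.

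Of 17 genes known to act on the protocadherin clusters, which encode the insulator protein CTCF, cohesin and factors that load or release it, DNA methyltransferases and repressors of chromatin, 16 carried H3K36me3 (94.1%, compared with 34% of all genes), with Stag2 as the exception. The longest covered lengths were 36151 bp in Dnmt1, which maintains DNA methylation, 20323 bp in Smc3, a cohesin subunit, and 18554 bp in Setdb1, a methyltransferase of H3K9. H3K9me3 touched 8 of the 17 (47.1%), a share near the 40.2% of all genes, with the longest lengths in Smchd1 (5883 bp) and Rest (3400 bp), while Ctcf, Smc3, Stag1, Wapal, Dnmt3a and Dnmt3b made up the rest. Bases in both lists were found in 3 of the 17 (17.6%), Wapal, Smchd1 and Rest, and in 7.14% of all genes.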

How the data were processed

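H3K9me3 and H3K36me3 ChIP-seq libraries were made from WT and G34R ES cells (4 libraries, 1 per mark and cell type). According to the submitters' processing notes and the study's methods, the authors aligned reads to mm9 with Bowtie 1.0.0 (up to 5 alignments per read), removed duplicates, used SeqMonk to score 200 bp bins relative to library depth, kept bins in annotated genes above a percentile of either cell type, merged them, and excluded merged regions by size and by extreme counts; bedtools 2.20.1 is also named. The deposited values are region positions (chromosome, start and end) without counts or signal, so coverage depth is unknown. Regions are at least 600 bp wide in both lists, and a region that ends at the last base of mm9 chromosome 13 (120284312) fitted this build.

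Positions were intersected with GENCODE vM1 (mm9) in Python 3.11.15 with NumPy 2.4.6, pandas 2.3.3 and SciPy 1.17.1, with 1 bp as the minimum overlap, and the code was tested on simulated regions (1000 queries, 0 differences). The unit of comparison was the coding exon of at least 1.5 kb, or the 200 bp bin whose bases lay in a gene. Frames of at least 2.1 kb from start to stop codon were added in Pcdha and Pcdhg. The annotated and added exons of both clusters were named from RefSeq (GRCm38.p6) gene lengths within 1.5 kb, with 1 candidate each. These differences were at most 1344 bp. Repeated sequence was measured as exact 50-base words. The text names each member touched by either list, each constant exon, untouched members, and related genes with the 3 longest covered lengths. Pcdhb20 and the frames were added after the data were seen. Frames outside annotated genes (Pcdhga1 and Pcdhga2) were left out. The members and gene lists were chosen with earlier results of these data known. No test across samples, and no comparison of WT with G34R cells, was made. Every column of the lists was used (0 left out). Overlap rules, region width, merging, flanks and comparison exons were varied.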

Additional observations from a re-analysis of the deposited data

How the results depend on the processing

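The count of 31 annotated variable exons with H3K9me3 was 31 with at least 200 bp covered and with neighbours within 2 kb merged, 32 with 1 kb added on each side or with gene spans and promoters in place of exons, 21 with regions of at least 1 kb, and 16 with at least 50% of the exon covered, where Pcdhb kept 2 exons (7 with regions of at least 1 kb). With the reading frames added, an alternative chosen after seeing the data, 44 of 56 exons were touched, and the Pcdhg count moved from 6 of 9 to 15 of 20. H3K36me3, and both marks together, stayed at 0 in each of these. The comparison share of 34.2% for H3K9me3 was 40.7% in genes with a single coding exon, from which Pcdhb was not removed. It was 59.2% on chromosome 18, where 40 of 76 exons are the variable exons themselves, and 45.0% in the ranges of G+C and CpG ratio. For H3K36me3 the share of 30.6% was 18%, 9.21% and 36.9%. With 1 kb on each side, 1 constant exon met an H3K36me3 region. The other alternatives, including bins with unique centres, gene spans between the clusters and 600 bp of overlap for related genes, changed no count by over 1.5 times. No paired analysis was possible because the lists pool WT and G34R cells and each had 1 library. Depth, and so what the lists miss, is unknown.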
